A study of Mus musculus with 32 samples.

Results

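The livers of male wild-type (WT) mice fed a Western diet (WD) were compared with those of male WT mice fed a low-fat control diet (CD). The comparison used 8 of the 32 RNA-seq libraries of the series, 4 WD livers and 4 CD livers, each from one mouse, and was chosen by sex, genotype and diet alone, so no measured value decided which libraries entered it. The WD supplied 41% of its calories as fat and contained 0.2% cholesterol, and the CD supplied 10% of its calories as fat and contained no cholesterol. The mice were WT littermates of a line carrying a deletion of Nudt7, which encodes a peroxisomal CoA diphosphohydrolase, on the C57BL/6J background. All 8 were WT at Nudt7, carried no other engineered allele that the labels name, received no drug, and started the diets at 6 weeks of age. Livers were collected between 17 and 20 weeks of age. The study took mice either fed, at a set hour of the morning, or after a fast, and which of these applied to the sequenced livers is not given in the sources used here. The other 24 libraries came from Nudt7-/- (KO) males and from WT and KO females on both diets, and they appear below only where the response of WT males is set against that of KO males or WT females.

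The liver both makes cholesterol and takes it up from lipoproteins, and it adjusts the first to the second. When sterol reaches the endoplasmic reticulum, SCAP holds the transcription factor SREBP2 there, and transcription of the enzymes of the mevalonate and sterol pathway declines. Oxysterols made from the same cholesterol activate the liver X receptors (LXR), which induce the transporters that export sterol into bile and plasma, whereas fatty acids act on PPARα, which induces fatty acid oxidation in mitochondria and peroxisomes. Fatty acid synthesis from carbohydrate is driven by SREBP-1c and ChREBP and depends on insulin and on dietary sugar.

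The libraries held 10140048 to 13574102 estimated counts in WD livers and 11564838 to 14089282 in CD livers. Values below are CPM, counts scaled by TMM to a common library size, and fold changes are WD over CD from edgeR's quasi-likelihood fit, on the log2 scale with their standard error (SE) and a p adjusted over all genes tested by the method of Benjamini and Hochberg. Within a diet the Spearman correlation of CPM between livers was 0.9812 to 0.9894, and between diets it was 0.9642 to 0.9798. The first principal component held 40.29% of the variance and separated the diets, at 15.75 to 24.26 in WD livers and −26.5 to −13.77 in CD livers. CD 3 and CD 4 stood apart from the other CD livers in the relation of expression to transcript length. They also stood apart in single genes such as Nudt7. The counts of each gene list without both livers are given below, after the relation to length. The hepatocyte markers Alb, Ttr, Trf and Hnf4a were abundant in all 8 libraries, the summed level of the 8 hepatocyte markers was 61202 to 68091 CPM in WD livers and 72647 to 86230 CPM in CD livers, and the 4 Y-linked label-check genes were detected in all of them, at a summed 181 to 203 CPM in WD livers and 130.3 to 161 CPM in CD livers. Summed markers of Kupffer cells (372 to 577 CPM in WD livers, 378 to 613 CPM in CD livers), of stellate cells (438 to 484 CPM in WD livers, 442 to 500.2 CPM in CD livers) and of lymphocytes (7.89 to 16.1 CPM in WD livers, 6.10 to 12.8 CPM in CD livers) overlapped between the diets. Endothelial markers overlapped narrowly (394 to 459 CPM in WD livers, 455 to 492 CPM in CD livers). Pancreatic acinar markers summed to 75.9, 17.2, 14.6 and 32.4 CPM in WD livers, against 12.3 to 27.5 CPM in CD livers. WD 1 was thus the highest, and the part of pancreatic tissue in that liver was not tested. In bulk tissue, fewer cells of a type and less RNA per cell cannot be told apart, and the p-values measure the spread between these livers.

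Of 12235 genes that reached 10 counts in 4 or more livers, 1678 (13.7%) changed with the diet, and 3615 (29.5%) had an unadjusted p under 0.05. A total of 848 (6.93%) were higher and 830 (6.78%) lower in WD livers, and 2462 (20.1%) had no overlap between the 4 WD and the 4 CD values. These shares of all genes are the background for the list counts below. The median log2 fold change of all genes was 0.01 under TMM, a scaling that centres fold changes near 0. With upper-quartile scaling 670 genes were higher and 961 lower, so the balance of the directions depends on the scaling. A fold change above 2 was reached by 95 of the higher and 127 of the lower genes, and 1646 of the calls were protein-coding genes. The number of calls depended on single livers and was 803 to 1612 when each was left out in turn. A total of 631 genes remained called in each of these 8 fits, and the genes described below as higher or lower were among them unless the livers whose omission ended the call are named. Length offsets lowered the number of calls to 1031 (8.43%) with DESeq2 and to 481 (3.93%) with edgeR.

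The largest decline lay in cholesterol synthesis. All 21 enzymes on the list, from acetoacetyl-CoA thiolase to the last reductases, were lower in WD livers, with no overlap between the diets for any of them (20.1% of all genes) and a median log2 fold change of −2.10, while 6.78% of all genes tested were lower. Promoter stretches of these genes are shown first, because sterol-responsive promoters are known to pair an SREBP site with sites for the CCAAT-binding factor NF-Y. RefSeq windows of 250 bases before to 50 bases after the start on GRCm38.p6 were at hand for 16 of the 21 genes, and Sqle, Fdft1 and Fdps were among those not matched. CCAAT or its reverse complement ATTGG stood in 15 of the 16 windows (93.8%), against 11096 of all 27025 windows (41.1%). In the fatty acid oxidation lists described below, the share was 85.7% for ω-oxidation (6 of 7 windows) and 61.1% for peroxisomal oxidation (11 of 18). For mitochondrial oxidation and ketogenesis it was 38.9% (7 of 18), so the motif was not particular to lists that fell. On the plus orientation alone CCAAT was found in 8 of the 16 cholesterol synthesis windows (50%), against 23.7% of all windows. Stretches from 8 of the 16 windows, as examples of how the copies lie, are given 5′ to 3′ in the direction of transcription, with CCAAT or ATTGG in capitals.
Mvd, chr8:122443435-122443492, minus strand: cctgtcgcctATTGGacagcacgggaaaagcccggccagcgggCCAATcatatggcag
Idi1, chr13:8885551-8885605, plus strand: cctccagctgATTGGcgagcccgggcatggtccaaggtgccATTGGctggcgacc
Nsdhl, chrX:72918402-72918515, plus strand: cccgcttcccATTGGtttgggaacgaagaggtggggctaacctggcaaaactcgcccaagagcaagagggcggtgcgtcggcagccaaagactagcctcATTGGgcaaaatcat
Cyp51, chr5:4104712-4104736, minus strand: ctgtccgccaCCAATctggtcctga
Dhcr7, chr7:143830119-143830179, plus strand: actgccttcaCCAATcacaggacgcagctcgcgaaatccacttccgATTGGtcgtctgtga
Pmvk, chr3:89454395-89454419, plus strand: ctcaggttggCCAATtcacagcatc
Lss, chr10:76531533-76531557, plus strand: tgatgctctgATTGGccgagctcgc
Tm7sf2, chr19:6067883-6067907, minus strand: cccagcgctgATTGGctactgtgct
Mvd, Idi1, Nsdhl and Dhcr7 carried at least one more copy in the stretch printed, and Cyp51, Pmvk, Lss and Tm7sf2 a single one. A match describes these letters only and is not evidence of binding.

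The sterol regulatory element itself was searched as TCACNCCAC on both strands. It was present in 1 of the 16 windows (6.25%), that of Hmgcs1, and in 388 of all windows (1.44%). Hmgcs1, HMG-CoA synthase, acts early in the pathway, and its stretch is shown because it holds the element (TCACCCCAC, in capitals) between copies of ATTGG, also in capitals.
Hmgcs1, chr13:119690104-119690320, plus strand: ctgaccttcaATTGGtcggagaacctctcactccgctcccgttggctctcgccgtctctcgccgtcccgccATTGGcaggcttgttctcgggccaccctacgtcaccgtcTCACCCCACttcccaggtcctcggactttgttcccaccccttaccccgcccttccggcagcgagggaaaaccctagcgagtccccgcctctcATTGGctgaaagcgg
Hmgcs1 had 189, 98.0, 164 and 124 CPM in WD livers, against 594, 479, 279.8 and 475 CPM in CD livers (log2 fold change −1.67, SE 0.27, adjusted p = 0.00837). Every WD liver lay below every CD liver, and CD 3 was the lowest of the CD livers.

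Sqle, squalene epoxidase, the first oxygen-requiring step of the pathway, had the largest decline of any gene named here. It had 5.85, 1.32, 3.08 and 1.35 CPM in WD livers, against 113, 72.2, 57.0 and 109.9 CPM in CD livers (log2 fold change −4.98, SE 0.50, adjusted p = 0.00316), a 31.7-fold lower level (ENSMUSG00000022351, chr15:59315077-59331192, plus strand). The WD livers did not approach the CD range, and WD 2 and WD 4 were the lowest. Mvd, mevalonate diphosphate decarboxylase, whose promoter is printed above, had 5.11, 1.03, 2.81 and 1.26 CPM in WD livers, against 42.3, 23.7, 30.8 and 53.5 CPM in CD livers (log2 fold change −3.94, SE 0.50, adjusted p = 0.00657; ENSMUSG00000006517, chr8:122433601-122443422, minus strand). WD 1 was the highest WD liver for both Sqle and Mvd and was still far below the lowest CD liver.

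**Figure D1:**
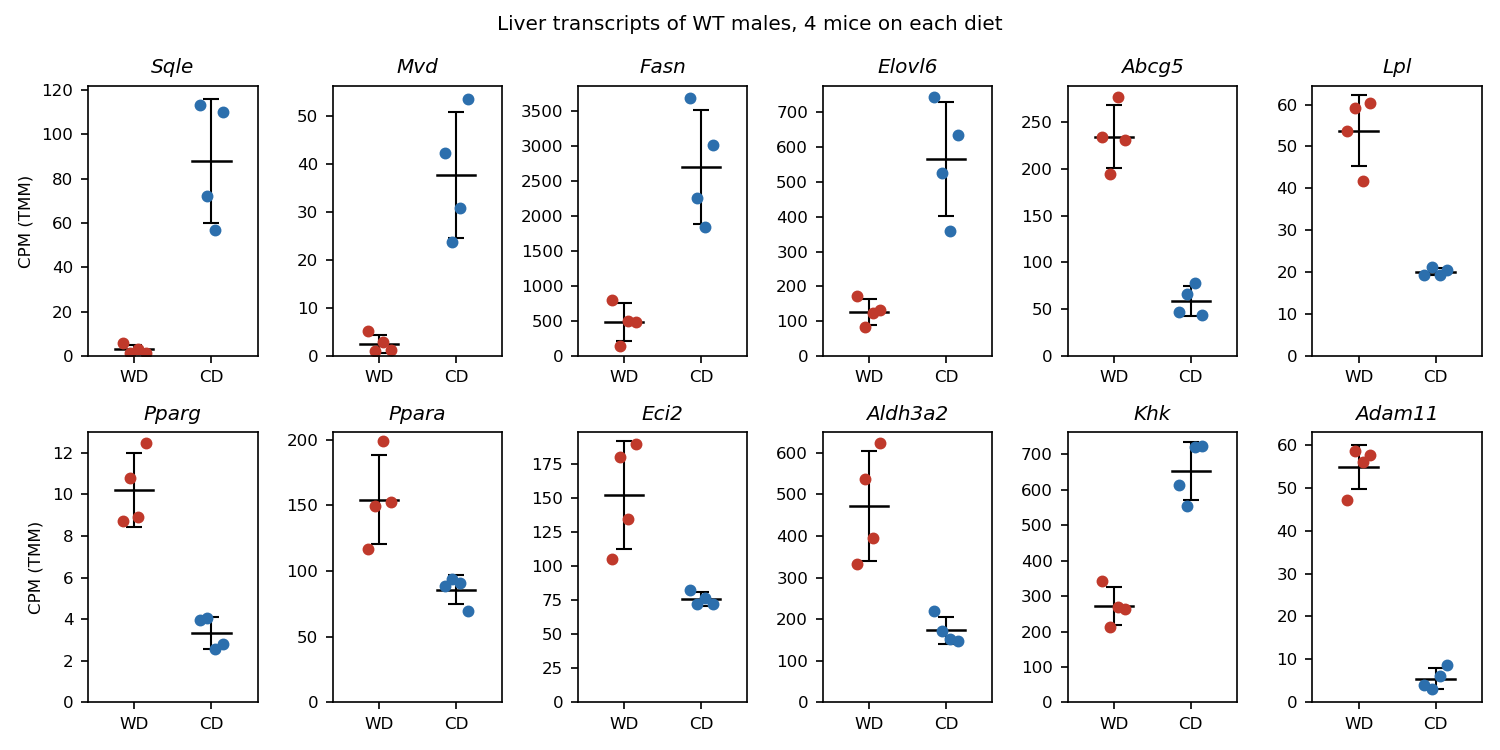
CPM (TMM scaled, linear axes from 0) of 12 genes in each WT male liver, WD livers left and CD livers right in each panel. Points are single livers, the line is the mean and the bars are the SD of 4 livers. Sqle, Mvd, Elovl6 and Khk are lower in all WD livers, Abcg5, Lpl, Pparg, Eci2 and Adam11 are higher in all WD livers, and Aldh3a2 is higher with a wider spread among WD livers (333 to 625 CPM).

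Along the pathway, the decline was deepest in the middle. In the mevalonate part, log2 fold changes were −1.50 for Acat2, −1.89 for Mvk, −2.15 for Pmvk, −2.84 for Idi1, which isomerises isopentenyl diphosphate, and −3.18 for Fdps, which makes farnesyl diphosphate. At the branch into sterols, Fdft1, squalene synthase, had 24.0, 2.13, 9.44 and 6.64 CPM in WD livers, against 157, 115, 93.8 and 129.5 CPM in CD livers (log2 fold change −3.59, SE 0.65, adjusted p = 0.0197). The groups were far apart, but its adjusted p was 0.0627 without WD 3 and 0.055 without WD 4. In the sterol part, Lss, which closes the ring of lanosterol, had −2.10, Cyp51, lanosterol demethylase, −2.33, Msmo1 −2.19, Nsdhl −2.63 and Dhcr7 −2.22, all as log2 fold changes. Among the smallest were those of Lbr (−0.50), Ebp (−0.56), Sc5d (−0.88) and Hsd17b7 (−0.996), and the enzymes that share the Δ14-reductase step differed in size of change, with Tm7sf2 at −1.83 and Lbr, which is also a protein of the nuclear envelope, at −0.50. Msmo1 was no longer called without CD 4 (adjusted p = 0.0532), Sc5d without CD 1 or CD 4 (at most 0.0668) and Lbr without WD 1, WD 2, WD 3, CD 2 or CD 4 (at most 0.098). Of the 21, 18 to 21 were called when each liver was left out in turn, and 8 without CD 3 and CD 4 together, at a median of −2.20.

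Of 12 tested genes for sterol sensing and SREBP2 targets, 4 were lower and none higher in WD livers (edgeR, with 8 of the 12 at an unadjusted p under 0.05 and 6 called by DESeq2 with length offsets). Srebf2, the gene of SREBP2 itself, had 34.99, 28.7, 41.1 and 25.5 CPM in WD livers, against 75.7, 64.7, 51.6 and 59.4 CPM in CD livers (log2 fold change −0.95, SE 0.16, adjusted p = 0.00564). It was lower in every WD liver, and the decline was smaller than that of most synthesis enzymes. Scap, which escorts SREBP2, fell by 0.60 on the log2 scale, and Tmem97, an SREBP target that binds the cholesterol transporter NPC1, had 31.6, 24.9, 35.8 and 30.3 CPM in WD livers, against 61.9, 56.5, 57.5 and 64.8 CPM in CD livers (log2 fold change −0.98, SE 0.11, adjusted p = 0.000723). Insig1, which retains SCAP, had 349.8, 134, 343 and 129 CPM in WD livers, against 439.9, 488, 579 and 661 CPM in CD livers (log2 fold change −1.18, adjusted p = 0.0894). The groups did not overlap, and the gene did not pass the threshold, with a wide spread among WD livers. Insig2 (log2 fold change 0.02) and Mylip (0.35), an LXR-induced ubiquitin ligase, were not called. Without CD 2, 1 gene of the list was called higher.

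Sterol exporters moved the other way. Of 14 LXR targets and sterol efflux genes, 4 were higher and 1 lower in WD livers. The lower one, Npc2, which carries cholesterol inside lysosomes, had a log2 fold change of −0.46 and was not called without WD 3, CD 3 or CD 4 (adjusted p at most 0.061). Abcg5, one half-transporter of the pair that secretes sterols into bile, had 235, 195, 277 and 231 CPM in WD livers, against 47.4, 66.3, 77.7 and 44.1 CPM in CD livers (log2 fold change 1.99, SE 0.19, adjusted p = 0.000656; ENSMUSG00000040505, chr17:84658234-84683011, minus strand). Its partner Abcg8 had 242, 234, 291 and 212 CPM in WD livers, against 58.2, 90.0, 81.2 and 53.8 CPM in CD livers (log2 fold change 1.79, SE 0.17, adjusted p = 0.000656). All WD livers were above all CD livers for both, and the level in WD livers was 3.98 times that in CD livers for Abcg5 and 3.46 times for Abcg8. Abca1, which loads cholesterol onto apolipoprotein A-I, had 303, 292, 357 and 372 CPM in WD livers, against 259, 194, 225 and 184 CPM in CD livers (log2 fold change 0.62, SE 0.13, adjusted p = 0.0111), a smaller difference without overlap. Nr1h3, which encodes LXRα, had a log2 fold change of −0.25 (adjusted p = 0.0989), and Lpcat3, Soat2, Scarb1 and Lcat lay between −0.09 and 0.19 and were not called.

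Both lists of bile acid genes had a median log2 fold change near 0, at −0.06 for synthesis and conjugation and −0.04 for transport. In synthesis and conjugation, 2 of 13 genes were lower, 1 without WD 1, CD 1 or CD 3 and 0 without WD 3. The share called was 15.4%, close to the 13.7% of all genes. Cyp7a1, the rate-limiting enzyme, had 38.6, 73.1, 98.4 and 153 CPM in WD livers, against 119, 65.7, 95.2 and 57.5 CPM in CD livers. The diets overlapped widely (log2 fold change 0.11, SE 0.45, adjusted p = 0.902). Cyp8b1, which makes the 12α-hydroxyl of cholic acid, had 184, 281, 179 and 172 CPM in WD livers, against 499, 484, 274 and 372 CPM in CD livers (log2 fold change −0.997, SE 0.22, adjusted p = 0.0193). It was lower in WD livers, with WD 2 above CD 3, and its adjusted p was 0.0579 without WD 3 and 0.073 in the fit of all 16 male libraries. In transport, 5 of 16 genes were higher and 1 lower. Slc10a1, the sodium-dependent uptake carrier NTCP, had 532, 525, 549 and 451 CPM in WD livers, against 913, 830.1, 785 and 683 CPM in CD livers (log2 fold change −0.64, SE 0.12, adjusted p = 0.00689). On the export side, Abcc3, a basolateral pump that returns conjugates to blood, had 130.1, 258, 168 and 214 CPM in WD livers, against 75.5, 94.4, 78.5 and 60.5 CPM in CD livers (log2 fold change 1.32, SE 0.21, adjusted p = 0.00704), and Abcb4, the canalicular phospholipid floppase, had 262, 354, 279 and 290.3 CPM in WD livers, against 213, 203, 198 and 163 CPM in CD livers (log2 fold change 0.61, SE 0.12, adjusted p = 0.00915). The uptake carriers did not move together. Slco1a1 and Slco1b2, organic anion transporters that also take up bile acids, were higher. Slco1a1 had 622, 552, 604 and 499.6 CPM in WD livers, against 320.3, 396, 408 and 428 CPM in CD livers (log2 fold change 0.55, SE 0.12, adjusted p = 0.0129), and its adjusted p was 0.0802 in the fit of the 16 male libraries. Slco1b2 rose by 0.58 on the log2 scale (adjusted p = 0.0142) and was not called with length offsets in edgeR or DESeq2. The fifth higher gene was Atp8b1, a phospholipid flippase of the canalicular membrane (log2 fold change 0.47), which was not called without WD 3 (adjusted p = 0.0532). Abcb11, the bile salt export pump, had a log2 fold change of −0.04 (adjusted p = 0.843).

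Most genes of fatty acid synthesis fell. Of 12 lipogenesis genes, 8 were lower and none higher, with a median log2 fold change of −1.91. Acss2, which makes cytosolic acetyl-CoA from acetate, had 124, 59.7, 114 and 87.7 CPM in WD livers, against 546, 461, 382 and 704 CPM in CD livers (log2 fold change −2.44, SE 0.27, adjusted p = 0.00197). Acaca, acetyl-CoA carboxylase 1, had 234, 111, 168 and 157 CPM in WD livers, against 706, 529, 355 and 631 CPM in CD livers (log2 fold change −1.73, SE 0.27, adjusted p = 0.00721). Me1, malic enzyme and a source of NADPH, had 266, 135, 199 and 208 CPM in WD livers, against 673, 754, 387 and 762 CPM in CD livers (log2 fold change −1.67, SE 0.26, adjusted p = 0.00689). In all of these WD 2 was the lowest liver and CD 3 the lowest CD liver, and the diets did not overlap. Fasn, fatty acid synthase, had 806, 139, 507 and 479 CPM in WD livers, against 3687, 2258, 1850.5 and 3022 CPM in CD livers (log2 fold change −2.49, SE 0.53, adjusted p = 0.0283). It was 5.60-fold lower with a broad spread, since WD 1 was 806 CPM and WD 2 139 CPM, and its adjusted p was 0.0771 without WD 3, 0.0751 without WD 4, 0.062 without CD 1, 0.055 without CD 3 and 0.0705 without CD 4. The list had 5 lower genes without WD 3, WD 4, CD 1 or CD 4, and 4 without CD 3 and CD 4 together.

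The regulators of lipogenesis were not called. Srebf1, which encodes SREBP-1, had 433, 222, 407 and 381 CPM in WD livers, against 397, 284, 359.9 and 344 CPM in CD livers, and the groups overlapped (log2 fold change 0.06, SE 0.19, adjusted p = 0.871). Mlxipl, which encodes ChREBP, had a log2 fold change of −0.07 (adjusted p = 0.757). Pklr, liver pyruvate kinase and a ChREBP target, fell by 1.51 on the log2 scale (adjusted p = 0.00841), and Slc25a1, the mitochondrial citrate carrier, had 105, 75.2, 106 and 96.7 CPM in WD livers, against 160.4, 149.7, 149.97 and 184 CPM in CD livers (log2 fold change −0.75, SE 0.12, adjusted p = 0.00414). Among 11 NRF2 targets, 2 were higher and 3 lower (45% called, against 13.7% of all genes). The lower ones belonged to the pentose phosphate route to NADPH. Of these, Tkt, transketolase, had 88.3, 57.9, 82.2 and 90.2 CPM in WD livers, against 152, 135, 149.97 and 154 CPM in CD livers (log2 fold change −0.89, SE 0.13, adjusted p = 0.00245), without overlap. G6pdx and Pgd, the dehydrogenases of that route, had log2 fold changes of −1.50 and −1.31. G6pdx was not called without CD 4 or any one WD liver (adjusted p up to 0.0771), and Pgd without WD 3, WD 4, CD 1, CD 2 or CD 4 (up to 0.0836). The list had 1 lower gene without WD 3, WD 4 or CD 4 and 1 higher gene without WD 2, WD 4, CD 3 or CD 4.

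Of 16 elongases and desaturases, 4 were lower. Elovl6, which extends palmitate, had 171, 81.8, 122 and 131 CPM in WD livers, against 743, 527, 358 and 634 CPM in CD livers (log2 fold change −2.16, SE 0.28, adjusted p = 0.00414; ENSMUSG00000041220, chr3:129532355-129638495, plus strand). Every WD liver was below every CD liver, and WD 2 was again the lowest. Tecr, the last reductase of the elongation cycle, had 80.2, 70.4, 93.0 and 79.3 CPM in WD livers, against 164, 132, 146 and 149.8 CPM in CD livers (log2 fold change −0.87, SE 0.11, adjusted p = 0.000897), and Elovl1, which makes very long chains, had 22.02, 20.4, 18.6 and 20.3 CPM in WD livers, against 31.0, 28.04, 34.7 and 32.7 CPM in CD livers (log2 fold change −0.64, SE 0.10, adjusted p = 0.00287). These were smaller differences with narrow spreads. Scd1, the main hepatic Δ9-desaturase, had 17823, 3464, 16115 and 21162 CPM in WD livers, against 29824, 12179, 16715 and 19548 CPM in CD livers. It was among the most abundant transcripts in both diets, its ranges overlapped, and a single liver, WD 2, had a value far below the others (log2 fold change −0.42, SE 0.55, adjusted p = 0.669).

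In triacylglycerol synthesis, the isoforms of one step moved in opposite directions. Of 14 genes, 2 were higher and 2 lower, which is 28.6% called, against 13.7% of all genes. Gpat3, a glycerol-3-phosphate acyltransferase of the endoplasmic reticulum, had 2.77, 4.48, 5.08 and 7.81 CPM in WD livers, against 1.46, 1.37, 1.40 and 0.968 CPM in CD livers (log2 fold change 1.94, SE 0.30, adjusted p = 0.00325), and Gpat4 had 180.3, 180.4, 201 and 198 CPM in WD livers, against 105, 119, 139 and 107 CPM in CD livers (log2 fold change 0.69, SE 0.11, adjusted p = 0.00316). Both were higher in every WD liver, with Gpat3 far less abundant than Gpat4 in CPM, which does not correct for length. Gpam, the mitochondrial isoform, had 362, 169, 333 and 244 CPM in WD livers, against 628, 508, 469.9 and 831 CPM in CD livers (log2 fold change −1.14, SE 0.27, adjusted p = 0.0264), and its adjusted p was 0.0721 without WD 4, 0.0594 without CD 1 and 0.056 without CD 4, which left 1 lower gene in the list each time. Dgat2, which adds the last acyl chain, had 306, 320.2, 329.8 and 335 CPM in WD livers, against 600.0, 454, 495 and 515 CPM in CD livers (log2 fold change −0.68, SE 0.11, adjusted p = 0.00369), and the WD livers were closely grouped below all CD livers. Dgat1 had a log2 fold change of −0.26 (adjusted p = 0.105).

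Of 18 genes of lipid droplets and lipolysis, 2 were higher and none lower, which is 11.1% and close to the 13.7% of all genes. Hsd17b11, a droplet-associated dehydrogenase, had 225, 353, 205 and 252 CPM in WD livers, against 119.9, 138, 140.5 and 119 CPM in CD livers (log2 fold change 1.003, SE 0.16, adjusted p = 0.00379), without overlap. The other was Fitm1, with 9.68, 8.88, 7.53 and 15.98 CPM in WD livers, against 4.38, 3.71, 3.30 and 7.39 CPM in CD livers (log2 fold change 1.17, SE 0.30, adjusted p = 0.0324), where WD 4 was the highest liver of all and CD 4 the highest CD liver. Its call was lost without WD 1 (adjusted p = 0.0542), WD 2 (0.0522), CD 1 (0.0782), CD 2 (0.0729) or CD 3 (0.0882), and 1 gene of the list was higher without WD 2, CD 2 or CD 3. Fitm2, which encodes a protein of the endoplasmic reticulum that cleaves acyl-CoA, had 34.9, 51.7, 42.1 and 74.4 CPM in WD livers, against 39.9, 32.3, 34.5 and 28.8 CPM in CD livers (log2 fold change 0.59, adjusted p = 0.113), and WD 1 lay inside the CD range. Plin2, the main coat protein of hepatic droplets, had 389.6, 387, 321 and 407 CPM in WD livers, against 359, 269, 262 and 306 CPM in CD livers (log2 fold change 0.33, adjusted p = 0.0902), and Cidec, which enlarges droplets, had 1.81, 1.39, 2.09 and 7.27 CPM in WD livers, against 0.568, 0.275, 0.495 and 1.41 CPM in CD livers (log2 fold change 2.22, adjusted p = 0.0688). In both genes the diets overlapped, for Cidec only through WD 2 and CD 4.

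**Figure D2:**
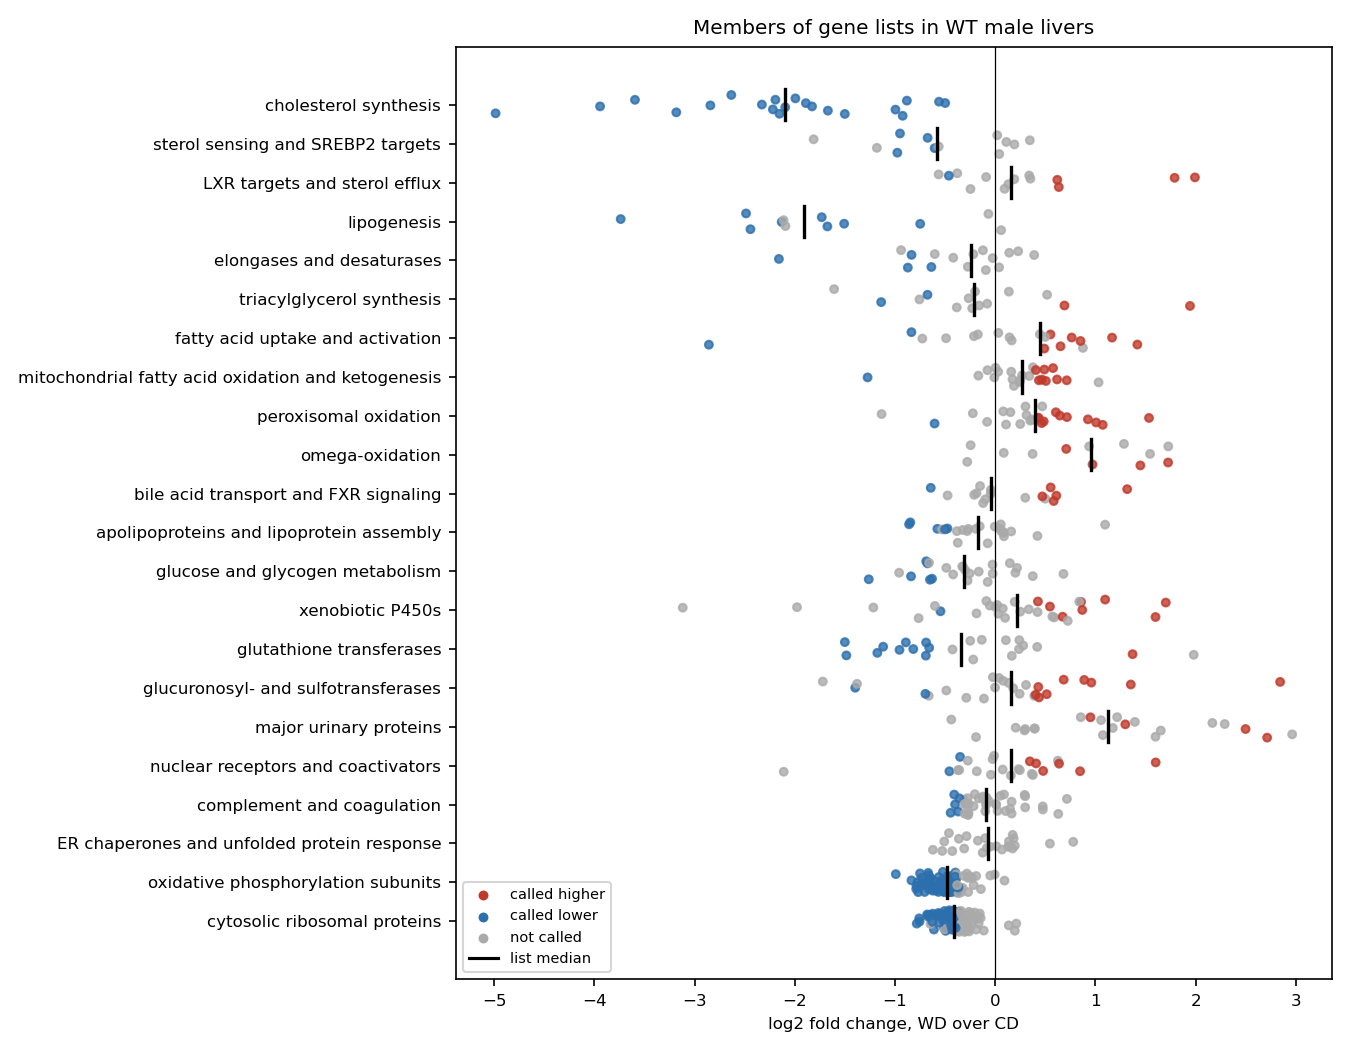
Log2 fold change, WD over CD, of every tested member of 22 gene lists in WT male livers. Each point is a gene, red where called higher, blue where called lower and grey where not called, and the black line is the median of the list. Cholesterol synthesis (median −2.10) and lipogenesis (−1.91) lie lowest, peroxisomal oxidation (0.40) and fatty acid uptake (0.45) lie above 0, and oxidative phosphorylation (−0.48) and ribosomal proteins (−0.41) form narrow bands below 0.

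Of 19 genes of fatty acid uptake and activation, 7 were higher and 2 lower, with a median log2 fold change of 0.45. Lpl, lipoprotein lipase, had 53.7, 59.1, 41.8 and 60.4 CPM in WD livers, against 19.4, 21.3, 19.4 and 20.4 CPM in CD livers (log2 fold change 1.42, SE 0.12, adjusted p = 0.000277; ENSMUSG00000015568, chr8:68880491-68907448, plus strand). The CD livers were nearly level, and all WD livers were clearly above them. Fabp2, a fatty acid binding protein best known from the intestine, had 120.4, 139.9, 129 and 155 CPM in WD livers, against 67.0, 57.6, 52.7 and 65.2 CPM in CD livers (log2 fold change 1.17, SE 0.11, adjusted p = 0.000409). Acsm5 and Acsm3, mitochondrial medium-chain acyl-CoA synthetases, rose by 0.76 and 0.49 on the log2 scale, and Slc27a2, a very-long-chain acyl-CoA synthetase and transporter, rose by 0.85 (adjusted p = 0.00801). Cd36, the fatty acid translocase, had 74.2, 131, 71.0 and 117 CPM in WD livers, against 96.6, 49.8, 31.99 and 36.2 CPM in CD livers, and CD 1 lay within the WD range (log2 fold change 0.87, SE 0.41, adjusted p = 0.212). Acsl5, a long-chain acyl-CoA synthetase that SREBP-1c induces, fell by 0.84 on the log2 scale (adjusted p = 0.00743). Fabp5, the other lower gene (log2 fold change −2.86), was not called without any one liver other than CD 2 (adjusted p up to 0.109), and the list had 1 lower gene without WD 2, WD 4, CD 1, CD 3 or CD 4.

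Nuclear receptors that sense fatty acids were higher. Ppara, the gene of PPARα, had 116, 149.6, 199 and 152 CPM in WD livers, against 88.6, 94.0, 90.8 and 69.9 CPM in CD livers (log2 fold change 0.85, SE 0.15, adjusted p = 0.00704). Pparg, which encodes PPARγ and is scarce in lean liver, had 8.72, 10.8, 8.89 and 12.5 CPM in WD livers, against 3.98, 4.05, 2.56 and 2.82 CPM in CD livers (log2 fold change 1.601, SE 0.19, adjusted p = 0.00079), 3.03 times its level in CD livers. Neither overlapped. Over 23 nuclear receptors and coactivators, 6 were higher and 2 lower, with 1 lower without WD 3, CD 3 or CD 4. Nr2f2 (COUP-TFII) had 55.1, 61.1, 57.4 and 61.5 CPM in WD livers, against 35.6, 46.4, 35.9 and 33.3 CPM in CD livers (log2 fold change 0.64, SE 0.11, adjusted p = 0.00533), and Nr1i2, the pregnane X receptor, had 58.5, 66.6, 59.0 and 56.3 CPM in WD livers, against 43.8, 49.6, 39.8 and 39.3 CPM in CD livers (log2 fold change 0.48, SE 0.10, adjusted p = 0.0111). Rxra, the shared partner of these receptors, had a log2 fold change of 0.16, and Hnf4a of 0.07, and neither was called.

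Of 24 peroxisomal oxidation genes, 11 were higher and 1 lower in WD livers, against 6.93% higher and 6.78% lower of all genes, and 8 to 11 were higher when each liver was left out in turn. Acaa1b, a peroxisomal thiolase, had 581, 995, 698 and 1260.1 CPM in WD livers, against 371, 230.1, 326 and 293 CPM in CD livers (log2 fold change 1.53, SE 0.25, adjusted p = 0.00716), and Eci2, an enoyl-CoA isomerase, had 106, 180.0, 134 and 190.0 CPM in WD livers, against 82.6, 72.5, 76.8 and 71.9 CPM in CD livers (log2 fold change 1.01, SE 0.17, adjusted p = 0.00566). In both, WD 2 and WD 4 were the highest and WD 1 the lowest WD liver. Ehhadh, the bifunctional enzyme, rose by 1.07 (adjusted p = 0.0109) and Acaa1a by 0.64 on the log2 scale. Acaa1a and Acaa1b are near-identical copies that share reads, so the division between them is uncertain. Hacl1, which cleaves 2-hydroxyacyl-CoA in α-oxidation, fell by 0.61 on the log2 scale (adjusted p = 0.00899). Of 16 peroxins, which build the organelle, 1 was higher, Pex3 (log2 fold change 0.42), and its adjusted p was 0.0536 without WD 4 and 0.0646 without CD 3. Without CD 3 and CD 4 together, 1 of the 24 peroxisomal oxidation genes was called, and the median was 0.36 in place of 0.40.

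In ω-oxidation, which hydroxylates the far end of fatty acids, 4 of 12 genes were higher and none lower. Aldh3a2, fatty aldehyde dehydrogenase, had 333, 538, 396 and 625 CPM in WD livers, against 221, 171, 153 and 148 CPM in CD livers (log2 fold change 1.45, SE 0.21, adjusted p = 0.00369), and Cyp4f15 had 119, 137, 142 and 130.2 CPM in WD livers, against 75.7, 77.5, 95.9 and 74.0 CPM in CD livers (log2 fold change 0.71, SE 0.10, adjusted p = 0.00258). Cyp4a12b, a male-predominant Cyp4a gene that shares reads with Cyp4a12a, had 106, 63.8, 76.5 and 72.6 CPM in WD livers, against 15.5, 17.0, 30.6 and 33.5 CPM in CD livers (log2 fold change 1.72, SE 0.29, adjusted p = 0.012). Every WD liver exceeded every CD liver for these genes. Cyp4a10 and Cyp4a14, the classical PPARα-induced members, had log2 fold changes of 1.73 (adjusted p = 0.213) and 1.54 (adjusted p = 0.506) and were not called, with a wide spread within each diet.

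Mitochondrial fatty acid oxidation showed smaller differences. Of 23 genes of oxidation and ketogenesis, 8 were higher and 1 lower, at a median log2 fold change of 0.27. Acadm, medium-chain acyl-CoA dehydrogenase, had 284, 384, 298 and 346 CPM in WD livers, against 199, 233, 194 and 174 CPM in CD livers (log2 fold change 0.71, SE 0.12, adjusted p = 0.0057). Bdh1, 3-hydroxybutyrate dehydrogenase, had 166, 216, 170.3 and 183 CPM in WD livers, against 135, 137, 124 and 122 CPM in CD livers (log2 fold change 0.51, SE 0.10, adjusted p = 0.0104), and Slc25a20, the carnitine-acylcarnitine carrier, had 85.7, 109.8, 84.0 and 120.3 CPM in WD livers, against 77.3, 62.2, 67.7 and 61.1 CPM in CD livers (log2 fold change 0.58, SE 0.13, adjusted p = 0.0149). None of the 3 overlapped. Cpt1a, which commits fatty acids to oxidation, had 261, 382, 424 and 418 CPM in WD livers, against 288, 249, 245 and 186 CPM in CD livers (log2 fold change 0.62, SE 0.17, adjusted p = 0.033). WD 1 lay below CD 1, and the adjusted p was up to 0.0899 without WD 2, WD 3, WD 4, CD 2, CD 3 or CD 4. The list had 3 higher genes without WD 2 or CD 4, 4 without WD 4 or CD 3, and none without CD 3 and CD 4 together, at a median of 0.27 there too. The lower gene, Pdk4, which restrains pyruvate oxidation (log2 fold change −1.27), was not called without WD 2, WD 4, CD 1, CD 3 or CD 4.

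CoA synthesis and degradation genes were not called in either direction by edgeR (0 of 13, with 2 at an unadjusted p under 0.05 and 1 called by DESeq2 with length offsets). Nudt7, the gene deleted in the other genotype, had 547, 348, 465 and 568 CPM in WD livers, against 326, 322, 555 and 608 CPM in CD livers. The diets overlapped (log2 fold change 0.09, SE 0.24, adjusted p = 0.843), and CD 3 and CD 4 were higher than CD 1 and CD 2. Nudt19 (log2 fold change −0.17) and Nudt8 (−0.29), the peroxisomal CoA hydrolase of kidney and the mitochondrial one, were not called either. Vnn1, the pantetheinase that recycles pantothenate, had 28.8, 87.0, 28.7 and 73.5 CPM in WD livers, against 27.3, 13.1, 10.4 and 17.0 CPM in CD livers (log2 fold change 1.69, adjusted p = 0.0773), which did not overlap and did not pass the threshold.

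A set of carbohydrate genes fell. Of 24 glucose and glycogen genes, 6 were lower and none higher, with a median log2 fold change of −0.31 and 5 to 8 lower when each liver was left out, and 1 higher without CD 2. Khk, ketohexokinase, which phosphorylates fructose, had 342, 213, 269.8 and 265 CPM in WD livers, against 614, 555, 719.7 and 723 CPM in CD livers (log2 fold change −1.26, SE 0.15, adjusted p = 0.00079; ENSMUSG00000029162, chr5:30921431-30931248, plus strand). It was lower in every WD liver. Slc37a4, the glucose 6-phosphate translocase, had 98.6, 88.4, 85.9 and 94.5 CPM in WD livers, against 162, 163, 186 and 147 CPM in CD livers (log2 fold change −0.84, SE 0.10, adjusted p = 0.000758), and Fbp1, fructose-1,6-bisphosphatase, had 774, 636, 742 and 629.5 CPM in WD livers, against 1079, 959.5, 1129 and 1137 CPM in CD livers (log2 fold change −0.63, SE 0.11, adjusted p = 0.00657). Pfkfb1, which sets fructose 2,6-bisphosphate, fell by 0.68 on the log2 scale (adjusted p = 0.0135). G6pc (log2 fold change −0.66) and Pck1 (0.68), both of gluconeogenesis, were not called, with adjusted p-values of 0.28 and 0.176.

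Of 38 amino acid and urea cycle genes, 5 were lower and 1 higher, which is 15.8% and close to the 13.7% of all genes. The lower count was 2 without WD 4, 3 without WD 2, CD 3 or CD 4, and 7 without WD 1. The higher gene, Aass of lysine breakdown (log2 fold change 0.53), was not called without WD 3 or CD 4, and 2 were higher without CD 3. Gnmt, glycine N-methyltransferase, which consumes S-adenosylmethionine, had 958, 641, 916 and 724 CPM in WD livers, against 1462, 1276, 2205 and 1552 CPM in CD livers (log2 fold change −1.003, SE 0.18, adjusted p = 0.00716). Asl, argininosuccinate lyase of the urea cycle, had 335, 263, 349 and 251 CPM in WD livers, against 485, 506, 526 and 398 CPM in CD livers (log2 fold change −0.68, SE 0.13, adjusted p = 0.00919). Both were lower in every WD liver, and CD 3 had the highest Gnmt. Cps1, the entry step of the urea cycle, had a log2 fold change of −0.15 and was not called.

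Among xenobiotic-metabolising P450 genes, 8 of 30 tested were higher and 1 lower (30% called, against 13.7% of all genes). A total of 5 were higher without WD 3, CD 1 or CD 2. None was lower without WD 1, WD 2, WD 3, WD 4, CD 1 or CD 3. Cyp2e1, which oxidises ethanol and ketones, had 5390.1, 8280.4, 6510.1 and 7480.4 CPM in WD livers, against 3363, 4387, 4293 and 3109 CPM in CD livers (log2 fold change 0.87, SE 0.16, adjusted p = 0.00754). It was abundant in both diets, and no WD liver overlapped a CD liver. Por, the reductase that supplies electrons to all microsomal P450s, had 84.8, 156, 183 and 149 CPM in WD livers, against 70.7, 57.9, 74.2 and 65.2 CPM in CD livers (log2 fold change 1.10, SE 0.21, adjusted p = 0.012), with WD 1 closest to the CD range. Cyp2c50 and Cyp2c37 rose by 0.67 and 0.86 on the log2 scale, and Cyp3a11 by 1.599 (adjusted p = 0.0177), all members of clusters of similar genes that share reads. Fmo5, a flavin monooxygenase, had 1119, 882, 935 and 869 CPM in WD livers, against 569, 606, 703 and 517 CPM in CD livers (log2 fold change 0.67, SE 0.13, adjusted p = 0.00803).

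Glutathione transferases and glucuronosyltransferases moved apart. Of 22 glutathione transferase genes, 10 were lower and 1 higher, with 7 to 9 lower when each liver was left out and 2 higher without CD 3. Mgst3, a membrane-bound member, had 4.25, 4.55, 6.17 and 6.46 CPM in WD livers, against 11.7, 10.3, 14.1 and 12.5 CPM in CD livers (log2 fold change −1.18, SE 0.16, adjusted p = 0.00192). Gstt1 had 160.1, 153, 155 and 155 CPM in WD livers, against 242, 207, 309.7 and 226 CPM in CD livers (log2 fold change −0.66, SE 0.12, adjusted p = 0.0068), and Gstm7 had 41.9, 24.9, 36.0 and 31.96 CPM in WD livers, against 50.7, 52.8, 56.5 and 57.0 CPM in CD livers (log2 fold change −0.69, SE 0.13, adjusted p = 0.00846). The WD values of Gstt1 were nearly identical, and none of the 3 genes overlapped. Gsta2 was the exception, with 20.2, 19.4, 17.0 and 21.2 CPM in WD livers, against 6.17, 6.74, 12.3 and 4.84 CPM in CD livers (log2 fold change 1.37, SE 0.24, adjusted p = 0.00891). Of 26 glucuronosyl- and sulfotransferase genes, 9 were higher and 2 lower, with 1 lower without WD 3 or CD 3. Ugt2b35 had 244, 246, 238 and 288 CPM in WD livers, against 116, 146, 146 and 140.2 CPM in CD livers (log2 fold change 0.89, SE 0.11, adjusted p = 0.000833), and Ugt2b1 had 921, 577, 698 and 609.9 CPM in WD livers, against 341, 315, 407 and 382 CPM in CD livers (log2 fold change 0.96, SE 0.15, adjusted p = 0.00369). Ugt2b38 had 10.1, 7.56, 6.53 and 5.66 CPM in WD livers, against 0.893, 0.344, 1.32 and 1.67 CPM in CD livers (log2 fold change 2.84, SE 0.34, adjusted p = 0.0012), a low level that was 7.17 times higher in WD livers. Ugt2b and Gstm genes are paralogs whose reads may be divided between neighbours, so single members are less certain than the families. Sult1a1, a phenol sulfotransferase, fell by 0.70 on the log2 scale (adjusted p = 0.0128). The median transcript length of the glutathione transferase list was 1039 bases and that of the glucuronosyl- and sulfotransferase list 2196 bases. Once the dependence on length was taken out of every liver, 10 glutathione transferase genes were called. Their median log2 fold change was then −0.24, against −0.34 before. The glucuronosyl- and sulfotransferase list then had 11 genes called, at a median of 0.18, against 0.16 before. Length offsets in edgeR left 9 glutathione transferase genes called and 5 of the other list.

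Secreted proteins changed in small numbers. Of 24 apolipoprotein and lipoprotein assembly genes, 5 were lower and none higher, or 1 higher without CD 1. The share called was 20.8%, against 13.7% of all genes. Apoc3, an inhibitor of lipoprotein lipase and of remnant clearance, had 779, 685, 695 and 649.8 CPM in WD livers, against 1165, 1071, 1638 and 1222 CPM in CD livers (log2 fold change −0.86, SE 0.14, adjusted p = 0.00414). Apom, the carrier of sphingosine 1-phosphate, had 129, 126, 105 and 92.6 CPM in WD livers, against 165, 153, 185 and 172 CPM in CD livers (log2 fold change −0.58, SE 0.12, adjusted p = 0.00993), and Apoa4 had 473, 652, 500.3 and 361 CPM in WD livers, against 1152, 853, 834 and 736 CPM in CD livers (log2 fold change −0.85, SE 0.18, adjusted p = 0.0148). The diets did not overlap for any of them, and Apoa4 had an adjusted p of 0.123 in the fit of the 16 male libraries. Apob and Mttp, which assemble very-low-density lipoprotein, had log2 fold changes of 0.42 and −0.15 and were not called, and Apoa1 and Apoe had 0.06 and 0.16. Of 13 carboxylesterases, 3 were higher and 1 lower (30.8% called, against 13.7% of all genes), with 1 higher without WD 1 or WD 4. Ces2a had 223, 219, 218 and 172 CPM in WD livers, against 114, 127, 159.8 and 142 CPM in CD livers (log2 fold change 0.62, SE 0.12, adjusted p = 0.00942), and Ces2g fell by 0.55 on the log2 scale (adjusted p = 0.0069).

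The major urinary proteins, pheromone carriers made in bulk by male liver, had a median log2 fold change of 1.12 over 22 genes. Of these, 4 were called, all higher (18.2%, against 13.7% of all genes called). Mup19 had 24367, 22456, 21497 and 13811 CPM in WD livers, against 8338, 7387, 5559 and 12123 CPM in CD livers (log2 fold change 1.298, SE 0.25, adjusted p = 0.00994). The lowest WD liver, WD 4, was only just above the highest CD liver, CD 4. The mean deviation of the 22 genes from the CD mean was 2.03, 1.17, 1.38 and 0.473 (log2 CPM) in WD livers and −0.451, −0.443, −0.0542 and 0.948 in CD livers, so CD 4 lay inside the WD range. The number called was 1 without WD 3 or CD 3, 2 without CD 1 and 7 without CD 4. These genes are nearly identical in sequence, so their reads can be assigned to the wrong copy, and single members are uncertain.

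Hepatokines, hormones secreted by liver, included genes in both directions, with 2 higher and 4 lower of 17 (35.3% called, against 13.7% of all genes). Fst, follistatin, which binds activins, had 8.08, 4.84, 5.08 and 3.86 CPM in WD livers, against 17.6, 13.7, 8.66 and 12.5 CPM in CD livers (log2 fold change −1.28, SE 0.25, adjusted p = 0.0124), and CD 3 was the CD liver nearest to the WD range. Inhbe, an activin subunit, had 71.5, 62.8, 55.3 and 78.6 CPM in WD livers, against 41.7, 29.7, 31.9 and 17.1 CPM in CD livers (log2 fold change 1.15, SE 0.24, adjusted p = 0.02), without overlap, and its adjusted p was 0.055 without CD 3. Fgf21 had 0.851, 1.39, 0.726 and 0.808 CPM in WD livers, against 3.00, 2.34, 0.412 and 2.82 CPM in CD livers, and CD 3 was below all WD livers (log2 fold change −1.15, adjusted p = 0.144). The list had no higher gene without CD 3 and 1 without WD 1, WD 2, CD 1, CD 2 or CD 4, and it had 1 lower gene without WD 1, WD 3, CD 2 or CD 4 and 2 without WD 2, WD 4 or CD 1. In retinoid metabolism, 2 of 19 genes were higher and 2 lower, with 1 lower without WD 2, WD 4, CD 1, CD 3 or CD 4. The share called was 21.05%, against 13.7% of all genes. Rdh11, a retinal reductase that SREBPs induce, had 38.3, 17.2, 31.8 and 16.9 CPM in WD livers, against 132, 146, 87.2 and 167 CPM in CD livers (log2 fold change −2.36, SE 0.34, adjusted p = 0.00786), and this 5.14-fold decline was of the size seen for sterol enzymes.

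Acute phase genes showed no common direction, with 3 higher and 2 lower of 24 (20.8% called, against 13.7% of all genes). Steap4, a metalloreductase, had 92.8, 115, 109 and 117 CPM in WD livers, against 70.9, 62.1, 72.9 and 90.1 CPM in CD livers (log2 fold change 0.55, SE 0.12, adjusted p = 0.0136). Hamp2, a copy of the hepcidin gene, had 14.4, 13.9, 18.2 and 20.1 CPM in WD livers, against 219.9, 74.5, 296 and 59.4 CPM in CD livers (log2 fold change −3.28, SE 0.61, adjusted p = 0.0212). It varied several-fold among CD livers and little among WD livers, and its adjusted p was 0.0571 without WD 2, 0.061 without WD 3 and 0.0533 without WD 4. No gene of the list was lower without WD 3 or WD 4, and 1 was higher without CD 3. Saa1, Saa2 and Lcn2, which rise in inflammation, had log2 fold changes of −1.18, −1.48 and −1.34 and were not called. Of 40 complement and coagulation genes, 5 were lower, which is 12.5% and close to the 13.7% of all genes, and 0 to 4 were lower when each liver was left out (0 without CD 3, 1 without WD 3, WD 4 or CD 4, 2 without WD 2 or CD 1 and 3 without WD 1). None was higher, against 1 without WD 4 and 2 without CD 4.

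Antigen presentation and endoplasmic reticulum stress were not called by edgeR. In antigen presentation 0 of 13 genes passed, 0 reached 0.05 before adjustment, and 1 passed in DESeq2 with length offsets. Among ER chaperones and the unfolded protein response 0 of 24 passed, 2 reached 0.05 before adjustment, and 0 passed in DESeq2 with length offsets, while edgeR without WD 1 or CD 2 called 1 lower. Hsp90b1, the most abundant of them, had 1100.0, 1123, 855 and 763 CPM in WD livers, against 895, 869, 832 and 898 CPM in CD livers, and B2m, the light chain of class I molecules, had 1064, 1156, 1024 and 1071 CPM in WD livers, against 955, 957, 1191 and 1181 CPM in CD livers. In both the diets overlapped, with log2 fold changes of 0.14 and 0.01. In the growth hormone and IGF axis, 0 of 15 genes passed, 3 reached 0.05 before adjustment, and 1 passed in DESeq2 with length offsets.

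Of 16 circadian clock genes, 2 were higher and 1 lower (18.75% called, against 13.7% of all genes). Nr1d2 (REV-ERBβ), a repressor of the clock, had 51.8, 88.9, 126 and 94.7 CPM in WD livers, against 23.7, 40.4, 27.7 and 22.5 CPM in CD livers (log2 fold change 1.66, SE 0.30, adjusted p = 0.0146). Dbp, an output gene that cycles strongly over the day, had 1.595, 9.47, 38.9 and 27.4 CPM in WD livers, against 0.568, 1.24, 0.989 and 0.528 CPM in CD livers (log2 fold change 4.50, SE 1.07, adjusted p = 0.0418). WD 1 was close to the CD livers and WD 3 far above them, and Dbp was no longer called without WD 2, WD 3, WD 4 or any single CD liver, at adjusted p-values up to 0.112. Without WD 1, 5 clock genes were higher and 4 lower, and 1 was higher without any other single liver. Without CD 4, the number lower was 2. Feeding state and hour also act on clock genes. As the state of the mice sequenced is not given in the sources used here, the part of either in these values was not tested.

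Outside these pathways, the largest increases passing the rule for named genes included Adam11, a catalytically inactive member of the ADAM family. It had 47.1, 58.5, 55.9 and 57.6 CPM in WD livers, against 4.14, 3.09, 6.10 and 8.80 CPM in CD livers (log2 fold change 3.33, SE 0.27, adjusted p = 0.000656; ENSMUSG00000020926, chr11:102761439-102780262, plus strand), 10.0 times higher with little spread. Clec2h, a C-type lectin, had 7.66, 10.2, 19.1 and 8.26 CPM in WD livers, against 1.22, 1.17, 1.73 and 2.11 CPM in CD livers (log2 fold change 2.87, SE 0.34, adjusted p = 0.00196). Cfd, complement factor D or adipsin, had 10.3, 22.3, 6.99 and 24.96 CPM in WD livers, against 0, 1.03, 1.40 and 1.06 CPM in CD livers (log2 fold change 4.201, SE 0.70, adjusted p = 0.0141). Cfd is also an adipocyte marker. Of the 8 adipocyte markers, Adipoq, Lep, Retn and Plin1 were at 0 in WD 1, WD 2, WD 3 and CD 1, while WD 4 had 3.14, 1.26, 1.44 and 4.22 CPM and CD 2, CD 3 and CD 4 up to 0.616, 0.206, 0.176 and 1.06 CPM of the 4 genes in that order. The summed adipocyte markers, nearly all from Car3, which hepatocytes also express, were 2118 to 3232 CPM in WD livers and 1248 to 1878 CPM in CD livers. Of the 4 markers tested, Cfd and Car3 were called higher. Fabp4 had 10.7, 10.9, 8.17 and 30.2 CPM in WD livers, against 8.93, 10.0, 11.2 and 12.3 CPM in CD livers (log2 fold change 0.50, adjusted p = 0.488), with WD 4 far above the rest. Lipe had 11.6, 10.3, 10.98 and 12.2 CPM in WD livers, against 9.17, 8.38, 9.73 and 9.85 CPM in CD livers (log2 fold change 0.28, adjusted p = 0.121), which did not overlap and did not pass the threshold. The part of adipocytes in the Cfd values was not tested. Themis, known from thymocytes, had 1.38, 1.61, 2.00 and 6.46 CPM in WD livers, against 0.244, 0.137, 0.0824 and 0.528 CPM in CD livers (log2 fold change 3.52, SE 0.70, adjusted p = 0.0141), and WD 4 was the highest. Without any one WD liver Themis fell below the count filter. It was itself 1 of the 15 lymphocyte markers summed above, so that sum does not bear on it independently, and the part of lymphocytes in its values was not tested.

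The other genes with the largest increases by the rule were Mup-ps14 (2.78), Mup12 (2.71), Mup-ps7 (2.68) and Mup1 (2.50), all of the major urinary protein cluster and given as log2 fold changes. Mup12 was not called without WD 3, CD 1 or CD 3, and Mup1 without WD 1, WD 2, WD 3, CD 1, CD 2 or CD 3.

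Among the largest declines outside the sterol pathway, Cyp17a1, a steroid hydroxylase that is female-predominant in mouse liver, had 5.11, 2.64, 7.53 and 2.87 CPM in WD livers, against 156, 63.9, 59.9 and 28.4 CPM in CD livers (log2 fold change −4.10, SE 0.68, adjusted p = 0.0149). The CD livers spread from 28.4 to 156 CPM and none reached the WD range. Chrna4, a nicotinic receptor subunit, had 3.404, 0.0734, 2.63 and 0.718 CPM in WD livers, against 36.2, 24.8, 23.9 and 69.2 CPM in CD livers (log2 fold change −4.59, SE 0.75, adjusted p = 0.0147), and Pnpla3, the lipase known for its fatty liver variant in people, had 5.11, 0.0734, 2.09 and 1.62 CPM in WD livers, against 31.7, 13.5, 15.99 and 50.1 CPM in CD livers (log2 fold change −3.74, SE 0.82, adjusted p = 0.0328). In both genes CD 4 was the highest CD liver, CD 1 the next, and WD 2 nearly at 0. Pnpla3 was no longer called (adjusted p up to 0.09) without WD 2, WD 3, WD 4, CD 1, CD 3 or CD 4. Chrna4 had an adjusted p of 0.0505 with length offsets in edgeR. Other large declines by the rule were those of Pdzk1ip1 (−4.07), Sytl5 (−3.39) and Gm14494 (−3.50), as log2 fold changes at low levels. All 3 passed the count filter only through the CD livers. Without any single one of CD 1, CD 2, CD 3 and CD 4 they fell below it and were not tested.

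Genes of the respiratory chain fell together and by small amounts. Of 75 nuclear-encoded subunits of oxidative phosphorylation, 55 were lower and none higher, at a median log2 fold change of −0.48. Complex I had 27 of 37 genes lower, complex II 3 of 4, complex III 7 of 9, complex IV 7 of 10 and ATP synthase 11 of 15. Atp5g1, which encodes subunit c of ATP synthase, had 75.9, 62.6, 67.4 and 70.2 CPM in WD livers, against 139, 105, 163 and 142 CPM in CD livers (log2 fold change −0.99, SE 0.13, adjusted p = 0.00114). Ndufb8, of complex I, had 78.6, 80.7, 71.3 and 79.6 CPM in WD livers, against 136, 101.4, 144 and 135 CPM in CD livers (log2 fold change −0.74, SE 0.11, adjusted p = 0.00312). Both were lower in every WD liver, with CD 2 the nearest CD liver. Of 80 cytosolic ribosomal protein genes, 40 were lower and none higher, at a median of −0.41, with 23 of 47 in the large and 17 of 33 in the small subunit. Fau, which encodes a small-subunit protein fused to a ubiquitin-like one, had 77.4, 88.0, 68.3 and 72.8 CPM in WD livers, against 113, 105, 135 and 135 CPM in CD livers (log2 fold change −0.67, SE 0.11, adjusted p = 0.00496), and Rpl28 had 99.1, 108, 98.6 and 93.2 CPM in WD livers, against 131, 131, 149.7 and 152 CPM in CD livers (log2 fold change −0.50, SE 0.09, adjusted p = 0.00693). Many ribosomal protein genes have processed copies in the genome that share their reads.

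Both lists depended on single livers. The oxidative phosphorylation list had 35 lower genes without WD 3, 34 without CD 3 and 36 without CD 4, and the ribosomal list had 16 without WD 3, CD 3 or CD 4 and 24 without WD 4. Without CD 3 and CD 4 together, 3 and 0 were called, at medians of −0.33 and −0.25. The mean deviation of the 75 subunit genes from the CD mean was −0.42, −0.394, −0.609 and −0.497 (log2 CPM) in WD livers and −0.069, −0.232, 0.225 and 0.0762 in CD livers. The diets did not overlap, and CD 2 was the CD liver nearest to the WD livers. For the 80 ribosomal genes it was −0.33, −0.212, −0.571 and −0.435 in WD livers and −0.158, −0.121, 0.118 and 0.162 in CD livers, without overlap, and WD 2 lay nearer to CD 1 than to the other WD livers.

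**Figure D3:**
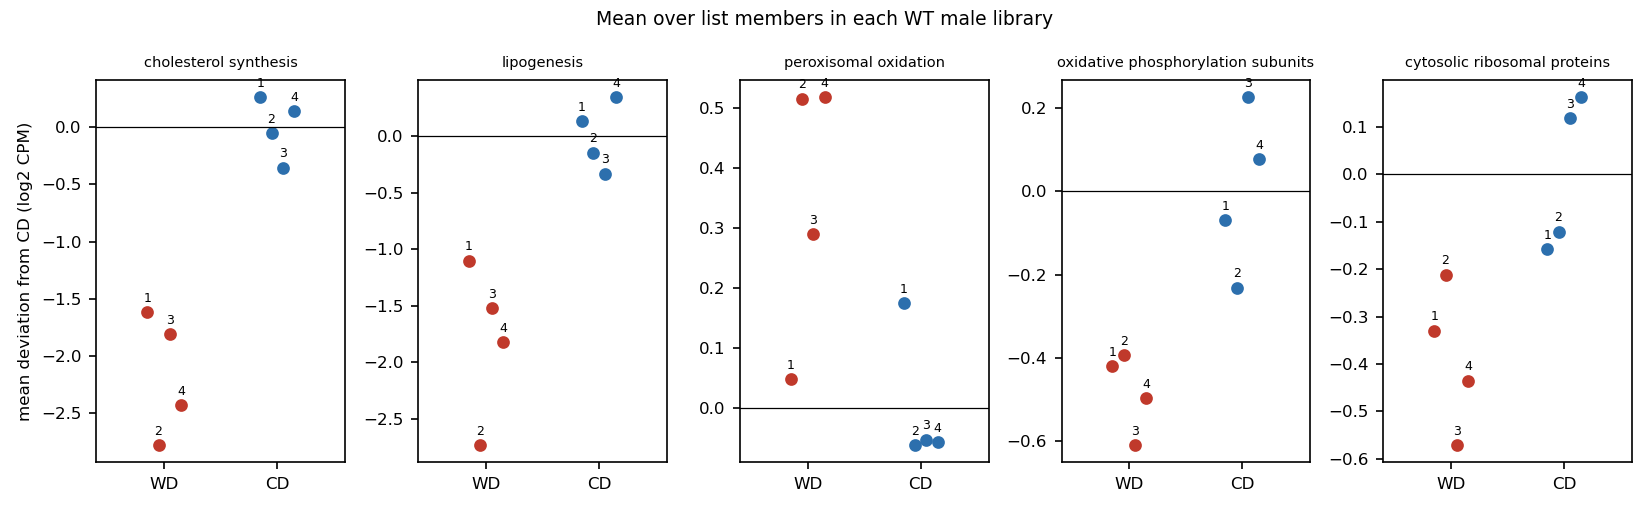
Mean deviation of 5 gene lists from the mean of the CD livers (log2 CPM) in each WT male liver, WD left and CD right, with points numbered by replicate. Cholesterol synthesis (WD −2.78 to −1.62, CD −0.353 to 0.262) and lipogenesis (WD −2.73 to −1.10, CD −0.332 to 0.344) are far apart, peroxisomal oxidation overlaps through WD 1 (0.0476) and CD 1 (0.174), and for ribosomal proteins the gap between WD 2 (−0.212) and CD 1 (−0.158) is small.

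Fold change followed transcript length. The Spearman correlation between the log2 fold change and the length of the transcript, weighted by its level, was 0.335 over the 12235 genes, which share the same 8 libraries and are not independent replicates. Genes of 500 to 1000 bases had a median log2 fold change of −0.27, with 18 higher and 221 lower of 941. Genes over 6000 bases had a median of 0.17, with 110 higher and 9 lower of 776. The median length was 3421 bases for genes called higher, 1443 bases for genes called lower and 2488 bases for all tested. The medians rose with every step of length between these ends, from −0.36 below 500 bases over −0.13 at 1000 to 1500 bases and 0.02 at 2000 to 3000 bases to 0.11 at 4000 to 6000 bases.

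The trend differed among livers of the same diet. The slope of log2 CPM deviation per doubling of length, with WD livers set against the mean of the CD livers and each CD liver against the mean of the other CD livers, was 0.0779, 0.068, 0.168 and 0.131 in WD livers and 0.0691, 0.082, −0.0627 and −0.0884 in CD livers. The difference of 0.111 had an exact two-sided permutation p of 0.143 over the 4 and 4 livers. Leaving a CD liver out of its own reference widens the CD slopes (SD 0.088, against 0.066 with a common reference), so these CD slopes are not on the same footing as the WD slopes. With deviations of every liver from the mean of all 8, a choice made after the data were seen, the slopes were 0.0224, 0.0124, 0.113 and 0.0749 in WD livers and −0.00374, 0.0059, −0.103 and −0.122 in CD livers. The diets then did not overlap, and the same difference had an exact two-sided permutation p of 0.0286, the smallest that 4 against 4 livers can give. CD 1 and CD 2 lay just below WD 1 and WD 2, and CD 3 and CD 4 were far lower. The correlation across genes was 0.271 on TPM, 0.276 without CD 4, 0.375 without CD 1 and 0.182 without CD 3 and CD 4. The mean fragment length implied by the files was 232, 238, 246 and 240 bases in WD livers and 237, 243, 235 and 259 bases in CD livers (difference −4.5 bases, exact permutation p = 0.629), and RNA integrity is not given in the sources used here, so the part of RNA quality in the trend was not tested.

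**Figure D4:**
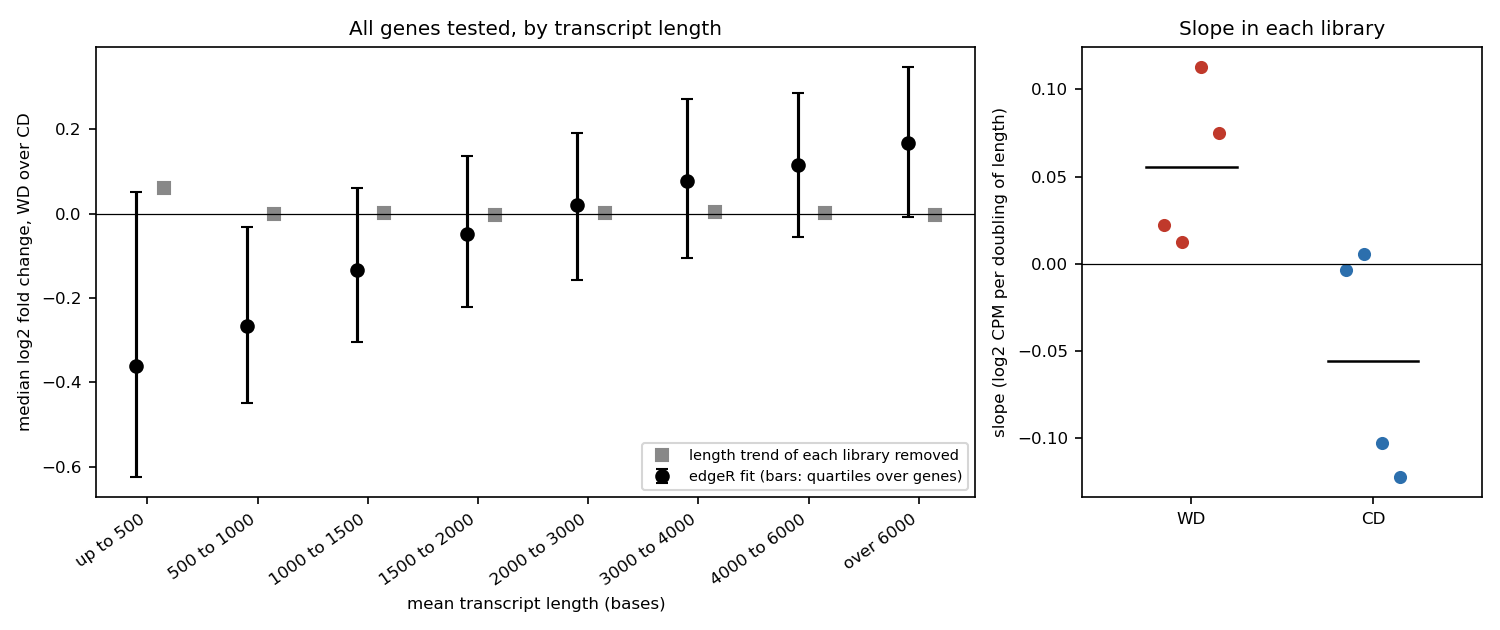
Left, median log2 fold change (WD over CD) of WT male livers in 8 bins of transcript length, with quartile bars for the edgeR fit and grey squares after the trend of each library was removed. Right, slope of log2 CPM deviation from the mean of all 8 livers per doubling of transcript length in each liver, WD left and CD right, with the line at the mean. The medians rise from −0.36 in the shortest to 0.17 in the longest bin, all WD slopes (0.0124 to 0.113) are above all CD slopes (−0.122 to 0.0059), and CD 3 and CD 4 are far below the rest.

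The lists were read against genes of like length. Of the subunit genes of 500 to 1000 bases, 35 of 43 were lower (81.4%), at a median of −0.52, and of the ribosomal genes of that length 31 of 56 (55.4%), at −0.42. The other 842 genes of 500 to 1000 bases had a median of −0.24, and 18.4% were lower. When the length trend of each library was removed, 1197 genes (9.78%) were called (606 higher and 591 lower) and 1014 of them were among the 1678. Oxidative phosphorylation then had 23 called at a median of −0.21, and ribosomal proteins 9 at −0.09. All 21 cholesterol synthesis genes, whose median length is 2673 bases, remained called.

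Without CD 3 and CD 4, a choice made after seeing the data that leaves 2 CD livers, 192 of 12249 genes were called, 76 higher and 116 lower. Of the 136 genes chosen by the rule and called with all 8 livers, 54 were still called, among them Sqle, Acss2, Acaca, Me1, Elovl6, Khk, Abcg5, Abcg8, Lpl, Pparg, Slc10a1, Adam11 and Cyp17a1. Mvd, Fdft1, Fasn, Abca1, Abcb4, Abcc3, Slco1a1, Ppara, Acaa1b, Eci2, Aldh3a2, Acadm, Cyp2e1, Cfd and Themis were among those not called. In the lipid lists there were 3 lower for sterol sensing, 2 higher for LXR targets, 3 lower for elongases and desaturases, 1 higher and 1 lower for triacylglycerol synthesis, 0 for lipid droplets, 3 higher for fatty acid uptake, 0 for peroxins and 2 higher for ω-oxidation. Bile acid synthesis had 2 lower genes, and transport had 0 higher and 1 lower. There were 2 lower genes for glucose and glycogen, 1 for amino acids, 1 for apolipoproteins and 1 for NRF2 targets, and 1 higher carboxylesterase. The P450s had 1 higher and 2 lower, the glutathione transferases 1 higher and 2 lower, the glucuronosyl- and sulfotransferases 4 higher and the flavin monooxygenases 0. Nuclear receptors had 1 higher, the clock 0, hepatokines 1 higher and 1 lower, retinoid genes 1 lower, acute phase genes 2 higher, complement and coagulation 1 higher, and major urinary proteins 1 higher.

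Nudt7-/- males gave the same sign for all 21 cholesterol synthesis genes, with fewer calls over all genes. In KO males 323 of 12407 genes (2.6%) were called between the diets, 203 higher (1.64%) and 120 lower (0.967%), and of the 1672 WT calls tested there 166 (9.93%) were called in the same direction. Cholesterol synthesis had 17 of 21 genes lower in KO males at a median of −2.32, against −2.10 in WT males. Lipogenesis had 3 of 12 lower in KO males at −1.63, peroxisomal oxidation 7 of 24 higher at 0.50, oxidative phosphorylation 4 of 75 lower at −0.31 and ribosomal proteins 0 of 80 at −0.35. Sqle had log2 fold changes of −4.98 in WT males and −5.96 in KO males, Abcg5 1.99 and 1.94, Adam11 3.33 and 3.63, and Eci2 1.01 and 0.67. The smaller counts in KO males do not by themselves show a smaller response.

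**Figure D5:**
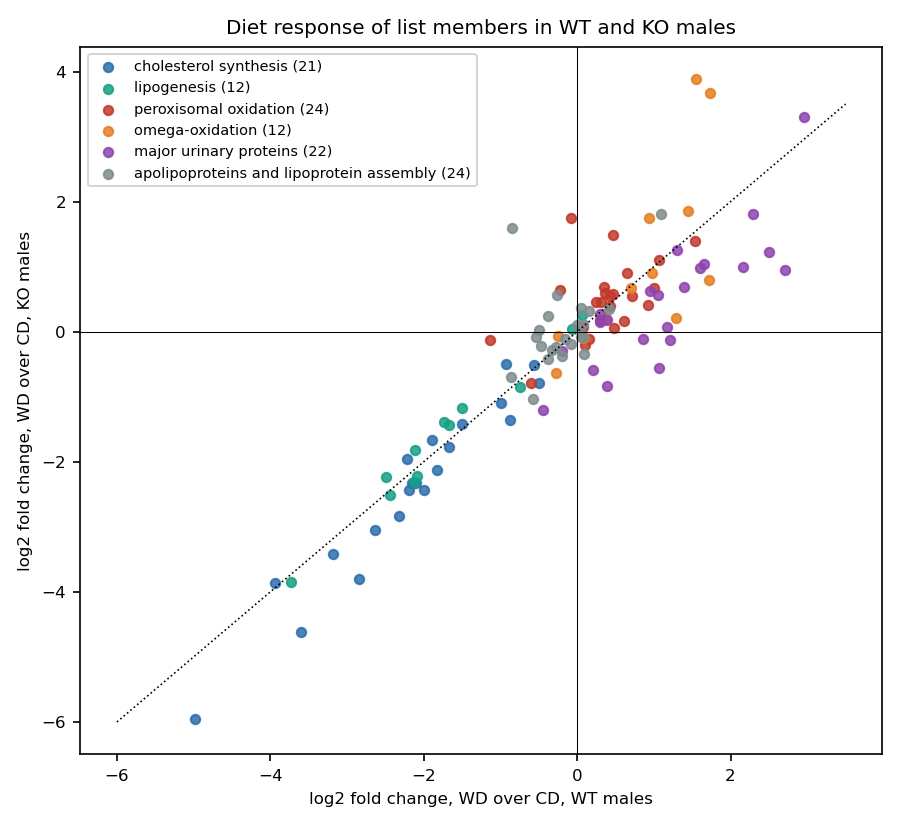
Log2 fold change (WD over CD) in WT males on the horizontal axis and in KO males on the vertical axis for the tested members of 6 gene lists, with the dotted line of equality. The 2 comparisons use separate mice. Sqle (−4.98 in WT males, −5.96 in KO males) and the other cholesterol synthesis genes lie near the line, below 0 on both axes.

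The diet effect differed between WT and KO males for 8 of 13539 genes (0.0591%) in a model of all 32 libraries, with 1613 (11.9%) at an unadjusted p under 0.05, 21 (0.155%) called by DESeq2 with length offsets and 5 (0.0369%) by edgeR with length offsets. The 8 were Rassf3, Ogfrl1, Apoa4, Dio1, Adgrf1, Sbk1, Abhd17b and Ugt2b38. Apoa4 averaged 497 ± 120.2 CPM in WD livers and 893 ± 179.5 CPM in CD livers in WT males (SD, n = 4 each). In KO males it averaged 1697 ± 922 CPM in WD livers and 562 ± 186 CPM in CD livers. The diet effect in WT males less that in KO males was −2.44 on the log2 scale (SE 0.42, adjusted p = 0.0149). Ugt2b38 averaged 7.46 ± 1.92 CPM in WD livers and 1.06 ± 0.572 CPM in CD livers in WT males. In KO males it averaged 2.92 ± 1.04 CPM in WD livers and 8.42 ± 10.7 CPM in CD livers, and the difference of the effects was 4.37 (SE 0.81, adjusted p = 0.0296). In both genes the fold changes of the genotypes had opposite signs. That of Ugt2b38 in KO males was −1.54 on the log2 scale (SE 0.84, edgeR adjusted p = 0.404) and was not called, so its sign there is uncertain. None of the sterol, lipogenesis or oxidation genes named here was among the 8.

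In WT females the same diets gave 10 calls of 12737 genes (0.0785%), and 2 of 1660 tested WT male calls (0.12%) were called there in the same direction. The cholesterol synthesis list had a median log2 fold change of −0.70 in WT females with none of 21 called. The diet effect of WT males less that of WT females was called for 0 of 13539 genes by edgeR, with 1178 (8.7%) at an unadjusted p under 0.05, 29 (0.214%) called by DESeq2 with length offsets and 3 (0.0222%) by edgeR with length offsets, so the larger number of calls in males is not shown to be a difference in response.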

How the data were processed

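Liver mRNA (TRI Reagent, KAPA mRNA HyperPrep, paired reads of 50 bases) was quantified by the authors with Salmon 1.3.0, per the submitters' processing notes, which also name DESeq2 1.28.1. For each of 117135 transcripts the deposited files give the estimated count, not normalized, the TPM, which the authors' quantification scales for length and depth, and the lengths in bases. Estimated counts were summed by gene with GENCODE vM21 (GRCm38; 115973 transcripts matched to 35523 genes, 0.315% to 0.366% of counts unmatched) and rounded. Salmon divides reads among similar transcripts by a model.

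Genes reaching 10 counts in 4 or more of the 8 libraries were tested with edgeR 4.0.16 (TMM, robust quasi-likelihood; R 4.3.3) at a Benjamini-Hochberg threshold of 0.05. Slopes used log2 CPM with a pseudocount of 0.5. The permutation tests enumerated all arrangements of the livers in Python 3.11.15 with NumPy 2.4.6. SciPy 1.17.1 gave the correlations of fold change with length. On simulated data for 12096 genes, edgeR found 31.3% of 1.5-fold, 80.6% of 2-fold and 97.0% of 4-fold changes. Of its calls, 6.71% were false. DESeq2 1.42.0 found 40.3%, 85.1% and 98.5%, and 14.4% of its calls were false. Whether these rates hold for the livers themselves was not tested.

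Alternatives were RLE and upper-quartile scaling, DESeq2, length offsets, removal of the length trend, no filter, filterByExpr, fits of 16 or 32 libraries, a replicate block and omission of each library. Members and gene lists were chosen with earlier results of these data known. The rule for named genes took the 10 largest fold changes in each direction among non-overlapping called genes with a mean log2 CPM over 0, the 4 smallest p-values among called members of each list (or its most abundant member), and fixed lipid, diet and study genes. Other list members were named after their values were seen. Some list members are counted but not reported by name here.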

Additional observations from a re-analysis of the deposited data

Results flagged for a closer look

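Within the groups of 4 livers, 9 of 298 gene and group combinations screened had one liver far from the other 3, where chance gives about 1 in 20. WD 4 accounted for 4 of them, WD 2 and CD 4 for 2 each and CD 3 for 1. Themis had 6.46 CPM in WD 4 (the other WD livers 1.38 to 2.00), Ugt2b35 288 CPM in WD 4 (238 to 246), Ces2a 172 CPM in WD 4 (218 to 223), and Gm14494, called lower at a very low level, 0.539 CPM in WD 4 and 0 in the others. Cyp8b1 had 281 CPM in WD 2 (172 to 184) and Cyp2c37 564 CPM in WD 2 (343 to 368). In CD 4, Cyp2c37 had 180.3 CPM (the other CD livers 237 to 247) and Cyp4a32 13.1 CPM (7.75 to 8.12), and in CD 3 Cyp4f15 had 95.9 CPM (74.0 to 77.5).

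The response to the diet differed between WT and KO males for Ugt2b38 (4.37 on the log2 scale, WT males less KO males, adjusted p = 0.0296 by edgeR in the model of 32 libraries) and for Apoa4 (−2.44, adjusted p = 0.0149).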

How the results depend on the processing

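Of the 149 genes chosen by the rule, 136 were called in WT males. Leaving aside the fit without CD 3 and CD 4, 75 of them were called under every alternative and 59 were lost in at least one. The other 2 (Themis and Pdzk1ip1) were called wherever tested in these alternatives but fell below the count filter in some. None of the 149 reversed in these alternatives. Without CD 3 and CD 4, 54 of the 136 were called. The 1678 calls in WT males became 481 (197 higher, 284 lower) in edgeR with length offsets, 1031 (439 higher) in DESeq2 with length offsets, 672 (331 higher, 341 lower) with a replicate block and 192 (76 higher, 116 lower) without CD 3 and CD 4, a choice made after seeing the data. Without single livers they were 803 to 1612 (377 to 802 higher, 426 to 810 lower). Fewer samples, or fewer degrees of freedom, enter these last fits, and the cause of the loss under length offsets was not tested. Mice of one number showed no shared deviation (mean correlation −0.095 over 4 pairs of equal number and 0.0318 over 12 others). The deviations were taken within each diet, and so few pairs cannot exclude a pairing by number.

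In KO males the count of calls was 808 in DESeq2 with length offsets and 111 to 356 without single livers. In WT females it was 84 in DESeq2 and 2 in edgeR with length offsets, 5 with the replicate block and 0 to 37 without single livers, and in KO females 195 in DESeq2 with length offsets and 1 to 52 without single livers, against 16. The WT male effect less that of KO males was called for 21 genes in DESeq2 and 5 in edgeR with length offsets and for 2 without the count filter, against 8, and less that of WT females for 29 and 3 with these offsets, against 0.

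With each CD liver set against the other CD livers, the length slope (WD less CD) was 0.0890 to 0.132 without single livers, at exact permutation p-values of 0.0857 to 0.257, and 0.1111 with p = 0.0286 for deviations from the mean of all 8 livers. The implied fragment length difference was −7.33 to 0.667 bases without single livers and turned positive without CD 4 (exact permutation p = 0.943). CCAAT searched on one strand was in 50.0% of the cholesterol synthesis windows. With 4 livers a group, the simulated recovery of 31.3% of 1.5-fold changes limits what a missing call shows.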

Other observations

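The glycolytic genes Gpi1, Gapdh, Eno1 and Aldoc, which are outside the lists, were lower. They were picked after their values were seen, so they support no list. Their source was the 258 genes (113 higher and 145 lower) called in WT males under every alternative omitting at most a single liver. Gpi1, glucose 6-phosphate isomerase, had 147, 119, 121 and 126 CPM in WD livers, against 266, 302, 221 and 256 CPM in CD livers (log2 fold change −1.03, SE 0.11, adjusted p = 0.000656). Gapdh had 1264, 1002, 1078 and 1035 CPM in WD livers, against 1810.3, 1494, 1843 and 1869 CPM in CD livers (log2 fold change −0.68, SE 0.12, adjusted p = 0.00629), and Eno1, enolase 1, fell by 0.76 on the log2 scale (adjusted p = 0.00219). Every WD liver was below every CD liver for these genes. Aldoc, an aldolase best known from brain, had 3.30, 1.69, 1.81 and 1.17 CPM in WD livers, against 11.8, 8.11, 8.82 and 9.94 CPM in CD livers (log2 fold change −2.30, SE 0.25, adjusted p = 0.000656), a 4.92-fold lower level. Gapdh is often used as a stable control in liver, and here it was 1.602-fold lower in WD livers, with a log2 fold change of −0.27 in KO males (adjusted p = 0.498). Its many processed copies may share reads.

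Single pairs of genes from phosphatidylcholine synthesis and from branched-chain amino acid breakdown, also picked after their values were seen, moved in opposite directions. No list of either pathway was made, so the pairs do not describe the pathways. Pemt, which methylates phosphatidylethanolamine, had 108, 96.9, 123 and 118 CPM in WD livers, against 168, 175, 184 and 201 CPM in CD livers (log2 fold change −0.71, SE 0.10, adjusted p = 0.00219), while Chpt1, choline phosphotransferase of the other route, had 339, 337, 281 and 329 CPM in WD livers, against 163, 198, 148 and 155 CPM in CD livers (log2 fold change 0.95, SE 0.11, adjusted p = 0.000833). Ppm1k, the phosphatase that activates branched-chain ketoacid dehydrogenase, had 136, 193, 205 and 145 CPM in WD livers, against 49.3, 72.0, 48.1 and 45.7 CPM in CD livers (log2 fold change 1.66, SE 0.18, adjusted p = 0.000909), and Slc25a44, the mitochondrial carrier of these amino acids, had 70.1, 49.2, 60.1 and 55.7 CPM in WD livers, against 117, 115, 99.6 and 133 CPM in CD livers (log2 fold change −0.99, SE 0.12, adjusted p = 0.000969). None of the 4 overlapped between the diets. Epoxide hydrolase 1, Ephx1, had 202, 275, 199.8 and 241 CPM in WD livers, against 75.1, 142, 71.2 and 84.2 CPM in CD livers (log2 fold change 1.299, SE 0.23, adjusted p = 0.00923), and Lepr, the leptin receptor, had 12.2, 14.02, 12.2 and 10.9 CPM in WD livers, against 26.5, 27.0, 22.4 and 26.4 CPM in CD livers (log2 fold change −1.05, SE 0.11, adjusted p = 0.000656). In KO males the log2 fold changes were −0.61 for Pemt, 0.84 for Chpt1, 1.36 for Ppm1k, −0.51 for Slc25a44, 1.18 for Ephx1 and −0.54 for Lepr.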
